A study of Mus musculus with 32 samples.

Results

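The Tdpoz family of the mouse was followed here through 6 protein-coding genes, Tdpoz1, Tdpoz2, Tdpoz3, Tdpoz4, Tdpoz5 and Gm10696, out of 55385 genes with RNA values. The members were chosen by name, through the GENCODE M21 symbols of their gene identifiers. The rule itself uses no measured value, but the family was picked with earlier results of these data known. Each of the 16 RNA libraries listed all 6, several of them at 0 in zygotes and in early 2-cell embryos with A-485. The embryos were wild-type, produced in vitro by fertilizing B6D2F1/J eggs with B6D2F1/J sperm from mice 6 to 8 weeks old, and times were counted from the addition of sperm as hours post insemination (hpi). The A-485 groups received 10 µM A-485, a catalytic inhibitor of the acetyltransferases CBP and p300. The schedule ran from 4 to 20 hpi, after which the drug was washed off. Late 2-cell embryos were collected after that, whereas zygotes and late 1-cell embryos may have been collected before the schedule ended. Zygotes, early 2-cell embryos and late 2-cell embryos were taken with this treatment, each beside embryos kept in the vehicle DMSO. They are called the A-485 experiment here, although the labels do not say that the stages were treated together. Their zygote and late 2-cell libraries were numbered apart from the early 2-cell libraries, whose sample numbers run on into those of the TSA experiment. The TSA group received 50 nM TSA, a histone deacetylase inhibitor, from 8 to 28 hpi, and was collected as late 2-cell embryos beside DMSO-treated embryos of its own. Each of the 8 groups had 2 RNA libraries, so late 2-cell DMSO embryos were measured in both experiments. ATAC-seq peak lists, of open chromatin, covered late 1-cell embryos as well as embryos early in the 2-cell stage, with A-485 or DMSO. Embryo numbers per library and hours of collection were not used here.

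TD-POZ proteins carry a TRAF-type (MATH) domain and a POZ (BTB) domain and are relatives of SPOP, the adaptor that brings substrates to ubiquitin ligases built on the scaffold CUL3. Their genes lie as a tandem array of similar copies and are known for transcripts in oocytes and cleavage-stage embryos. The mouse embryo starts its own transcription in a minor wave of zygotic genome activation (ZGA) from the late 1-cell to the early 2-cell stage, which is followed by a major wave at the late 2-cell stage. Histone acetylation by CBP and p300 marks active promoters and enhancers, and histone deacetylases remove it.

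The 6 members lay within 526.652 kb of chromosome 3 on GRCm38, at chr3:93651542-94178193. From low to high coordinate they were Tdpoz2 (ENSMUSG00000103362.1, chr3:93651542-93652686, minus strand), Tdpoz1 (ENSMUSG00000094084.2, chr3:93669333-93676310, minus strand), Tdpoz4 (ENSMUSG00000060256.1, chr3:93796398-93797510, plus strand), Tdpoz3 (ENSMUSG00000058005.3, chr3:93826020-93827117, plus strand), Tdpoz5 (ENSMUSG00000094163.1, chr3:93960292-93961314, minus strand) and Gm10696 (ENSMUSG00000074424.3, chr3:94174412-94178193, minus strand), which RefSeq names Spopfm2. Tdpoz2, Tdpoz3, Tdpoz4 and Tdpoz5 were annotated with 1 transcript of 1 exon. Tdpoz1 and Gm10696 had 2 transcripts each, with up to 2 exons. A further 4 copies were followed beside them: Gm37596, listed as Tdpoz6 among the gene names of the study, and Gm10697, Gm4858 and Gm9125, which RefSeq gives as Tdpoz7, Tdpoz8 and Tdpoz9.

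RefSeq windows around the annotated starts were matched for 4 of the 6 members, on GRCm38.p6. The 250 bases before each start are shown because the members moved together and because open chromatin was called over 1 of them. Capitals mark matches to the letters searched. In Tdpoz1 and Gm10696 they are TAATCC, the core of bicoid-type homeobox sites. In Tdpoz4 the match, on the opposite strand, is to AGATAA, which zinc-finger factors of the GATA type bind. In Tdpoz5 it is the CCAAT box. All are written 5′ to 3′ on the strand of the gene.
Tdpoz1, chr3:93676284-93676533, minus strand: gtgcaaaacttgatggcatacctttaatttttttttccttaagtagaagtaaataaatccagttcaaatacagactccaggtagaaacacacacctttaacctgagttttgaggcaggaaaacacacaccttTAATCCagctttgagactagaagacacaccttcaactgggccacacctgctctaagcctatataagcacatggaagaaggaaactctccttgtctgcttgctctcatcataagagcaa
Gm10696, chr3:94178194-94178443, minus strand: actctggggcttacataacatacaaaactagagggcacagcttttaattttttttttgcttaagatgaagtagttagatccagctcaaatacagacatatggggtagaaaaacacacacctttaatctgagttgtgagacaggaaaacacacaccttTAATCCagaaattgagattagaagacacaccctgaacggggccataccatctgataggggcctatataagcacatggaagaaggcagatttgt
Tdpoz4, chr3:93796148-93796397, plus strand: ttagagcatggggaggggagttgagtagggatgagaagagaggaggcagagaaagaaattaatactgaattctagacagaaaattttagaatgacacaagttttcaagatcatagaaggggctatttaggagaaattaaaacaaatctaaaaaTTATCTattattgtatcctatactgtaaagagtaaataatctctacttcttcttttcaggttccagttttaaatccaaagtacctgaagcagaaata
Tdpoz5, chr3:93961315-93961564, minus strand: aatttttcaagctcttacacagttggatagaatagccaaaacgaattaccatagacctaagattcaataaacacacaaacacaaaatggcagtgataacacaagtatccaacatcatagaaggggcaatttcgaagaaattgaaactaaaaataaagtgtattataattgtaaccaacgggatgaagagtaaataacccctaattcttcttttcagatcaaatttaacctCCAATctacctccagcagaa
These windows fell into 2 kinds. The 300-base windows were aligned in pairs, and ends that overhung were left out of the identity. Tdpoz1 and Gm10696 shared 79.3% of 285 aligned positions, and Tdpoz4 and Tdpoz5 shared 67.5% of 311. Windows of different kinds shared between 53.5% and 54.6% of 189 to 314 positions. In Tdpoz4 and Tdpoz5 the annotated start was the first base of the start codon, so those bases lie directly before the coding sequence. Where transcription begins was not measured. The copy Gm4858 (Tdpoz8) had a window of either kind. That at its upstream start was 84.6% identical to Tdpoz1, and that at a start codon 94.7% identical to Tdpoz4. The kinds thus went with where a start was annotated and do not show 2 sorts of promoter among the members. Both strands were searched for the letters named, for the core GATTNNATC of the DUX motif and for TATAAA, a form of the TATA box. Neither of these last strings was present in the 4 windows. Other forms of the TATA box were not searched, so its absence is not shown. Tdpoz1 and Gm10696 both hold the letters tatataa shortly before the start. Among all 32851 windows of the table, 7.06% held TAATCC, 11.2% AGATAA, 37.4% the CCAAT box, 13.6% TATAAA and 1.58% GATTNNATC. Each match is a string of letters and not a measured binding site.

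The copies were alike enough to bear on how reads could be assigned. Coding sequences of the 6 members ran from 340 codons in Tdpoz5 to 370 in Tdpoz4, and the 15 pairs of members were 73.4% to 88.5% identical in nucleotides, with a median of 81.3%. Tdpoz1 and Tdpoz3 were the closest pair of members and Tdpoz4 and Tdpoz5 the most distant. The coding sequence of Tdpoz5 was identical to that of Gm10697 over all 1020 bases, and the deposited counts of these 2 genes were equal in 16 of 16 libraries to within 0.01 count, so their reads cannot be told apart. RSEM, the program that divided reads among genes, gave Tdpoz5 a posterior standard deviation of 34.6% to 62.7% of its count in libraries with at least 10 counts. The medians for the other 5 members lay between 0.647% for Gm10696 and 1.89% for Tdpoz2. A value for Tdpoz5 below is therefore 1 share of a signal divided equally, and the pair is summed where TSA is described. With A-485 the pair summed to 0.13 ± 0.184 FPKM (SD, n = 2) at the early and 10.1 ± 6.21 FPKM at the late 2-cell stage, against 85.5 ± 1.13 and 125.9 ± 7.98 FPKM with DMSO. Tdpoz1 was 98.4% identical to Gm9125, yet the RSEM uncertainty of Tdpoz1 had a median of 1.04%.

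**Figure D1:**
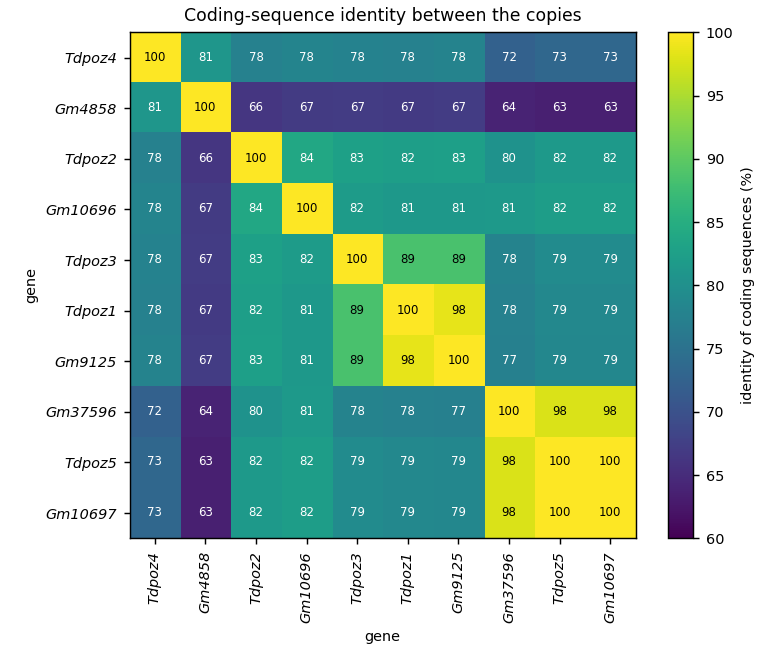
Nucleotide identity of the coding sequences of the 6 members and the other 4 copies, in percent of aligned positions, for each pair; both axes list the genes in the same order and colour runs from 60% to 100%. The block at 98% to 100% holds Tdpoz5, Gm10697 and Gm37596, and Tdpoz1 stands at 98% with Gm9125, while Gm4858 is distant from all but Tdpoz4.

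The libraries held between 13206163 and 32585987 expected counts each. All 10 oocyte and early-embryo marker genes tested, among them Nlrp5, Zp3 and Gdf9, had a mean of at least 1 FPKM, fragments scaled by transcript length and library size, in every group, and their summed level ran from 617.5 to 3102 FPKM. Summed markers of other cells were far lower, at up to 6.59 FPKM for cumulus cells, 2.64 for fibroblasts, 9.19 for erythroid cells and 18.8 for sperm, and the globin gene Hbb-bs was at 0 in all libraries. Mitochondrially encoded genes took 4.34% to 5.00% of counts in zygotes and 10.5% to 12.5% in DMSO-treated 2-cell embryos. Nothing in the labels said that the 2 libraries of a group came from separate cultures, so the p-values measure only the spread between these libraries, which may be technical. In whole embryos, fewer cells holding a transcript and less of it per cell cannot be told apart.

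In zygotes the family was at or close to 0. Summed over the 6 members, the level was 0.38 ± 0.0566 FPKM (SD, n = 2) with DMSO and 0.22 ± 0.0141 FPKM with A-485. Tdpoz5 and Gm10696 were highest among the members with DMSO, at 0.18 and 0.15 FPKM for Tdpoz5 and 0.15 and 0.10 FPKM for Gm10696. Tdpoz2 was at 0 in all 4 zygote libraries. Only 3 of the 6 members had the 10 counts needed for the edgeR quasi-likelihood test, and 0 of these 3 were called changed by A-485, against 0.0712% of all genes tested. A call required a Benjamini-Hochberg adjusted p under 0.05 over all genes, a fold of at least 2 and a mean of at least 1 FPKM in a group compared. At an unadjusted p under 0.05 there was 1 member, Gm10696, and the share of all genes at that cutoff was not counted. DESeq2 called 0 members. Gm10696 had 15 expected counts in the DMSO libraries and 0 with A-485, at least 5.39-fold lower against a floor of 3 counts over the group (adjusted p 0.83). In a fit of all 16 libraries the adjusted p of Gm10696 was 0.0243 (log2 -5.54), still without a call because its mean was under 1 FPKM. Its adjusted p ran from 0.0243 to 0.885 over the edgeR alternatives. The 3 tested members had a median log2 fold change of -1.05, beside -0.01 over all genes tested.

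All 6 members appeared between the zygote and the early 2-cell stage in DMSO-treated embryos. The summed level was 196.9 ± 15.8 FPKM (SD, n = 2) in early 2-cell embryos. All 6 were called higher, where 11.2% of the genes tested were. The median edgeR log2 fold change of the members was 9.61, beside 0.08 over all genes. Ratios of summed, TMM-scaled counts had a median of 8.76 on the log2 scale, with 2 members at the floor set to their bound. Gm10696 rose to 48.7 and 42.1 FPKM, Tdpoz5 to 43.1 and 42.3 FPKM, and Tdpoz3 to 40.9 and 43.0 FPKM. These 3 had the narrowest pairs. Tdpoz4 stood at 39.8 and 21.5 FPKM, Tdpoz1 at 20.2 and 29.9 FPKM, and Tdpoz2 at 15.4 and 6.99 FPKM, each with a wider gap between its libraries.

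The size of this rise is limited by the few zygotic counts. Ratios of summed counts, scaled by TMM factors, were 474 for Tdpoz1 with a 95% exact binomial interval from 229 to 1179, 396 (240 to 708) for Gm10696 and 282 (143 to 655) for Tdpoz5. Tdpoz4 rested on a single zygotic count, with a ratio of 1790 and an interval from 321 to 70748. Intervals and floors cover counting error only. Tdpoz3 was at least 806-fold higher and Tdpoz2 at least 226-fold higher against the floor of 3 counts. The edgeR adjusted p-values of the 6 ran from 1.35e-11 for Gm10696 to 4.37e-07 for Tdpoz2. Zygotes and 2-cell embryos were collected separately, so stage and collection cannot be told apart.

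With A-485 all 6 members stayed near 0 at the early 2-cell stage. The summed level was 0.495 ± 0.248 FPKM (SD, n = 2), or 0.251% of the DMSO mean. All 6 were called lower, where 7.9% of the genes tested were, with a median log2 fold change of -8.71 beside 0.00 over all genes. Mitochondrial shares were 11.2% and 11.4% with A-485 and 11.1% and 10.5% with DMSO. Marker sums were 1791 to 1945 FPKM with A-485 against 1663 to 1714 FPKM with DMSO for oocyte and early-embryo genes, 7.87 to 8.44 against 5.59 to 7.08 FPKM for sperm and 0.07 to 0.45 against 1.13 to 3.48 FPKM for erythroid cells, where Hbb-bs was at 0, and their part in the result was not tested. The members' counts show how little of the family was left. Gm10696 had 2143 and 1894 expected counts with DMSO and 0 and 1 with A-485. Tdpoz1 had 905 and 1347 counts with DMSO and 0 and 1 with A-485. In these members the A-485 libraries held next to no reads. Tdpoz5 had 766 and 769 counts with DMSO against 0 and 2 with A-485. Tdpoz2 had 314 and 146 counts with DMSO against 1 and 2 with A-485. None of the groups overlapped, although with 2 libraries each this says little, and its share over all genes was not counted. Tdpoz4 stood at 39.8 and 21.5 FPKM with DMSO and at 0.15 and 0.09 FPKM with A-485. Tdpoz3 had the highest mean level with A-485, at 0.12 and 0.31 FPKM against 40.9 and 43.0 FPKM.

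The DMSO to A-485 ratios of summed, TMM-scaled counts had a median of 436 over the 6 members. The best determined were those of Tdpoz3, at 184 with a 95% interval from 96.8 to 404, and Tdpoz4, at 245 (105 to 757). Tdpoz2 gave 155 (52.6 to 753) and Tdpoz5 775 (214 to 6403). Both rested on 3 or fewer counts with A-485. Tdpoz1 and Gm10696, with 1 count each, gave 2273 (408 to 89829) and 4075 (731 to 160999). Their intervals lay above that of Tdpoz3 and overlapped those of Tdpoz2, Tdpoz4 and Tdpoz5. The edgeR adjusted p-values ran from 3.21e-10 for Gm10696 to 5.16e-06 for Tdpoz2. All of the other 4 copies were called lower too. Among them Gm9125 stood at 44.8 and 62.2 FPKM with DMSO and at 0.34 and 0.18 FPKM with A-485, and Gm37596, the weakest of them, at 9.01 and 1.10 FPKM against 0.43 and 0 FPKM (adjusted p 0.0204).

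**Figure D2:**
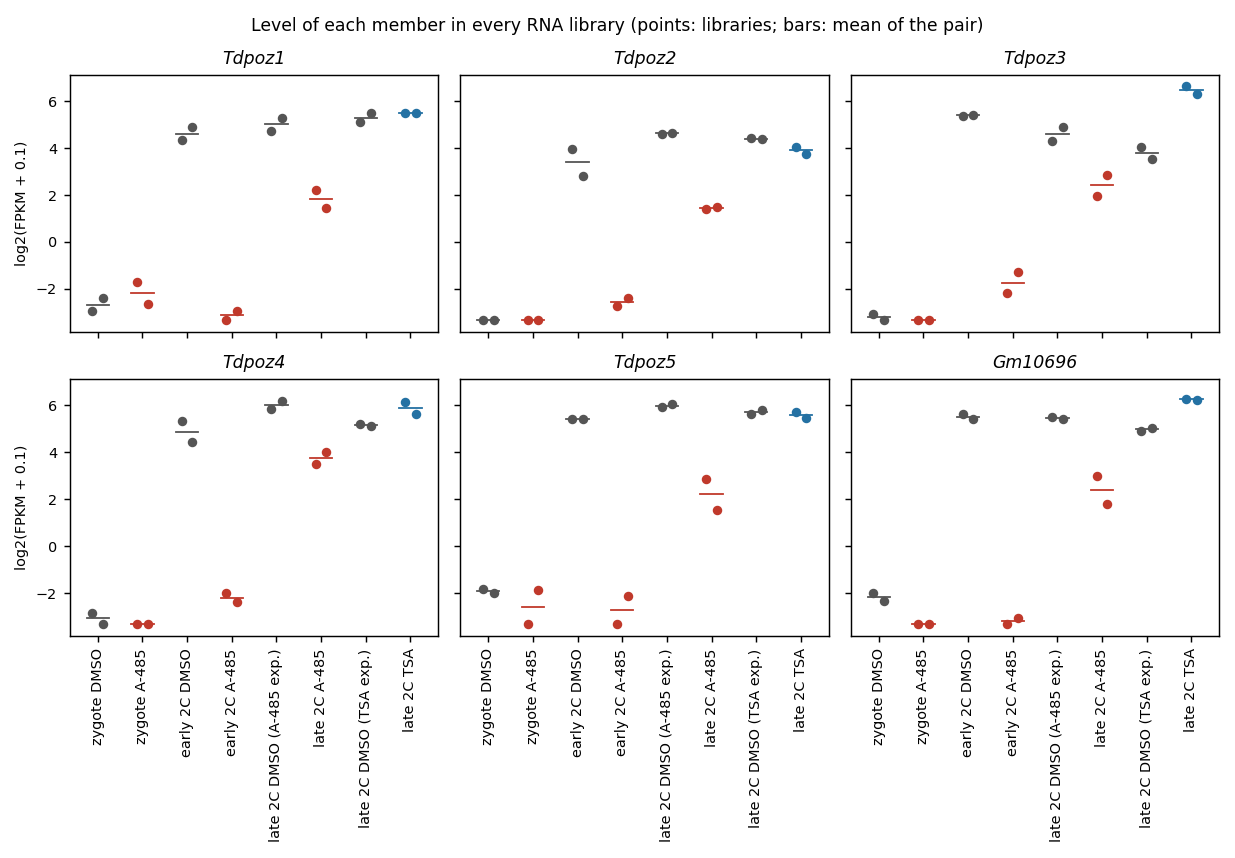
Level of each of the 6 members in every RNA library, as log2(FPKM + 0.1), with points for libraries and bars for the mean of the 2 libraries of a group; grey marks DMSO, red A-485 and blue TSA. In all 6 panels the zygotes and the early 2-cell A-485 libraries lie near the bottom, the late 2-cell A-485 libraries lie between them and the DMSO libraries, and TSA lies above its DMSO libraries most clearly for Tdpoz3 and Gm10696.

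At the late 2-cell stage, after A-485 had been washed off, the members were measurable again but still well below DMSO. The summed level was 36.1 ± 1.55 FPKM (SD, n = 2) with A-485 and 254.3 ± 30.2 FPKM with DMSO, or 14.2% of it. All 6 were called lower, beside 16.8% of the genes tested, with a median log2 fold change of -3.28 beside 0.28 over all genes. Tdpoz5 had 7.23 and 2.84 FPKM with A-485 against 60.1 and 65.8 FPKM with DMSO, a log2 fold change of -3.88 ± 0.35 (SE; adjusted p 3.19e-06). Tdpoz2 had 2.58 and 2.7 FPKM against 24.5 and 25.3 FPKM (-3.43 ± 0.31, adjusted p 3.1e-06). Tdpoz1 had 4.57 and 2.59 FPKM against 26.8 and 38.3 FPKM (-3.38 ± 0.29, adjusted p 1.98e-06). In these 3 members the A-485 mean was between 8.00% and 11% of the DMSO mean. Gm10696 had 7.80 and 3.39 FPKM against 44.6 and 43.1 FPKM (-3.18 ± 0.31, adjusted p 5.36e-06). Tdpoz4 had 11.2 and 16.3 FPKM against 57.5 and 73.7 FPKM (-2.46 ± 0.24, adjusted p 5.4e-06). Tdpoz3 had 3.78 and 7.21 FPKM against 19.4 and 29.5 FPKM (-2.35 ± 0.37, adjusted p 0.000293). The groups did not overlap in any member, but the share of all genes without overlap was not counted. Tdpoz3 and Tdpoz4 kept the largest remainders, 22.5% and 20.9% of the DMSO mean. Whether their remainder differed from that of the other members was not tested. The other 4 copies were called lower as well.

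Other values moved with A-485 at this stage. Mitochondrially encoded genes took 19.5% and 20.7% of counts with A-485, against 10.5% to 12.5% in the DMSO-treated late 2-cell libraries, and the 10 oocyte and early-embryo markers summed to 1474 to 1486 FPKM against 805.8 to 867.6 FPKM. Cumulus markers summed to 2.35 to 2.36 against 0.9 to 1.72 FPKM, fibroblast markers to 0.28 to 0.47 against 0.05 to 0.1 FPKM and erythroid markers to 0.33 to 0.55 against 0.71 to 0.75 FPKM, while the sperm sums overlapped. The A-485 libraries were also the shallowest, at 13206163 and 14922961 expected counts. Their part in the result was not tested. Scaling to mitochondrial counts in place of TMM left the members' calls at 6 of 6, although it moved the median log2 fold change of all genes from 0.28 to -0.35, and scaling to total counts moved that median to 0.47.

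Within A-485-treated embryos the family rose from the early to the late 2-cell stage. All 6 members were called higher, where 12.8% of the genes tested were, with a median log2 fold change of 6.27 beside 0.31 over all genes. Tdpoz4 went from 3 and 2 expected counts to 132 and 219, a ratio of 98.0 with a 95% interval from 41.6 to 304 (edgeR adjusted p 1.12e-08). Tdpoz3 went from 2 and 7 counts to 44 and 95, a ratio of 21.6 (11 to 48.1, adjusted p 0.000161). Tdpoz2 gave 32.1 (10.5 to 160, adjusted p 0.00154). These 3 members had the most counts in early A-485 embryos. Tdpoz5 gave 77.5 (21 to 648, adjusted p 0.000105), Tdpoz1 285 (50.5 to 11303) and Gm10696 436 (77.6 to 17258), all from 1 or 2 early counts. Moving the counts of Tdpoz5 by 1 posterior standard deviation against the difference ended its call (log2 3.22, adjusted p 0.0553). The stages were collected separately, and development and time without A-485 cannot be told apart.

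The shortfall with A-485 was smaller at the late than at the early 2-cell stage. In a fit over the 8 libraries of both stages, the difference between the log2 effects, late minus early, was called for all 6 members, where 7.6% of the genes tested were called higher. The difference ran from 3.87 ± 0.75 (SE) for Tdpoz2 (adjusted p 0.000385) to 8.60 ± 0.62 for Gm10696 (adjusted p 2.38e-10), and the median was 5.61 beside 0.44 over all genes. As several early A-485 groups held 3 or fewer counts, these fitted differences are not bounds. This fit shares its libraries with the comparisons above.

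In DMSO-treated embryos the members took different courses from the early to the late 2-cell stage. Tdpoz2 and Tdpoz4 were called higher and 0 members lower, beside 15.9% of the genes tested that were called higher and 8.92% called lower, and the median log2 fold change of the members was 0.46 beside -0.02 over all genes. Tdpoz4 went from 39.8 and 21.5 to 57.5 and 73.7 FPKM, 1.08 ± 0.25 (SE) on the log2 scale (adjusted p 0.00507). Tdpoz2 went from 15.4 and 6.99 to 24.5 and 25.3 FPKM (1.13 ± 0.32, adjusted p 0.0151). Without replicate 2 of early 2-cell DMSO, whose level was the lower of the pair in both genes, neither was called, at 0.68 for Tdpoz4 and 0.66 for Tdpoz2. Without replicate 2 of late 2-cell DMSO, Tdpoz4 fell short of the fold cutoff as well (0.94), and Tdpoz3 was called lower (-1.07). Tdpoz3 ran the other way, from 40.9 and 43.0 to 19.4 and 29.5 FPKM (-0.80, adjusted p 0.00871), short of the fold cutoff. Tdpoz5 had a log2 difference of 0.55 (adjusted p 0.0139), Tdpoz1 one of 0.36 and Gm10696 one of -0.06 (adjusted p 0.788), all short of a call, and the Tdpoz5 value turned to -1.03 (adjusted p 0.000357) with its counts moved by 1 posterior standard deviation against it. With the late DMSO libraries of the TSA experiment in their place, Tdpoz4 differed by 0.31 on the log2 scale (adjusted p 0.32) and Tdpoz3 by -1.48, which was then a call.

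The DMSO sets of the late 2-cell stage were compared between the experiments. Their listed schedules differed, 4 to 20 hpi in the A-485 and 8 to 28 hpi in the TSA experiment. Timing of the vehicle and experiment therefore cannot be told apart. None of the 6 members was called different by edgeR (0 of 6) or by DESeq2 (0), beside 1.32% of all genes tested. At an unadjusted p under 0.05 there were 3 members lower in the TSA experiment, Tdpoz4 (-0.79), Tdpoz3 (-0.72) and Gm10696 (-0.45 on the log2 scale). How many of all genes passed that unadjusted cutoff was not counted. The summed level was 194.5 ± 9.31 FPKM (SD, n = 2) there and 254.3 ± 30.2 FPKM in the A-485 experiment. The share of Tdpoz3 in this sum was 7.27% and 9.51%.

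With TSA at the late 2-cell stage, Tdpoz3 was the 1 member of 6 called higher and 0 were called lower, beside 13.8% of genes called higher and 13.9% called lower. The median log2 fold change of the members was 0.11 and that of all genes tested 0.13. Tdpoz3 had 99.5 and 79.8 FPKM with TSA against 16.6 and 11.4 FPKM with DMSO, a log2 fold change of 2.32 ± 0.18 (SE; adjusted p 1.86e-06). Gm10696 had 76.8 and 75.3 FPKM against 29.9 and 32.8 FPKM, 0.92 ± 0.09 on the TMM-scaled log2 scale (adjusted p 1.08e-05), under the fold cutoff. In these members alone both TSA libraries lay above the DMSO libraries on the FPKM scale and the adjusted p was under 0.05. How many of all genes met both conditions was not counted. Tdpoz4 had 70.4 and 49.9 FPKM against 36.5 and 35.0 FPKM (0.39 ± 0.15, adjusted p 0.0587). Tdpoz1 had 44.9 and 45.5 FPKM against 34.4 and 45.1 FPKM (-0.18 ± 0.12, adjusted p 0.296). For Tdpoz1 the groups overlapped, and its sign turned to 0.18 with scaling to total counts.

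On the lower side, Tdpoz2 had 16.5 and 13.4 FPKM with TSA against 21.3 and 21 FPKM with DMSO (-0.86 ± 0.17, adjusted p 0.00215), and Tdpoz5 had 52.0 and 44.5 FPKM against 49.2 and 55.8 FPKM (-0.48 ± 0.13, adjusted p 0.0106). Both differences missed the fold cutoff, and the Tdpoz5 groups overlapped on the FPKM scale. Moving the Tdpoz5 counts by 1 posterior standard deviation against the difference turned it to 1.14 (adjusted p 0.00034), a call in the other direction. Summed with Gm10697, the pair stood at 96.6 ± 10.6 FPKM (SD, n = 2) with TSA and 105.0 ± 9.22 FPKM with DMSO. The FPKM and TMM scales were apart in this comparison. Scaling to total counts moved the median of all genes from 0.13 to 0.49, and Gm10696 was then called higher (1.28), as it was in a fit of all 16 libraries (1.05). The sum of the 6 members was 334.3 ± 36.7 FPKM (SD, n = 2) with TSA against 194.5 ± 9.31 FPKM, a ratio of 1.72, and Tdpoz3 made up 26.8% of the sum with TSA. Of the other 4 copies, edgeR called 0. Nearest to the fold cutoff was Gm37596, on the lower side, at 6.58 and 9.03 FPKM against 9.76 and 11.2 FPKM (-0.77). Gm4858 came next, on the higher side, at 54.5 and 58.5 FPKM against 24.0 and 28.0 FPKM (0.76). An unadjusted p under 0.05 was found for 3 of the 4, and the share of all genes at that cutoff was not counted. Erythroid markers summed to 6.95 and 9.19 FPKM with TSA against 0.07 to 0.21 FPKM with DMSO, while Hbb-bs was at 0. Fibroblast markers summed to 1.88 to 2.64 against 0.08 to 1.49 FPKM, sperm markers to 3.6 to 5.4 against 1.79 to 3.05 FPKM, cumulus markers to 1.5 to 2.13 against 1.27 to 1.34 FPKM, and oocyte and early-embryo markers to 787.6 to 828.8 against 617.5 to 639.8 FPKM. Mitochondrial genes took 15.5% and 16.3% of counts against 12.5% and 12.0%. Their part in the result was not tested.

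**Figure D3:**
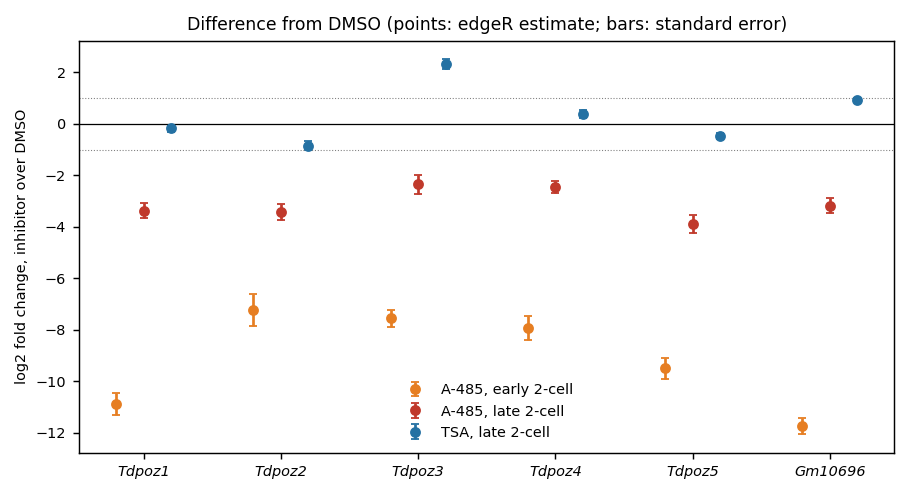
Log2 fold change of inhibitor over DMSO from edgeR for each member, with bars of 1 standard error and dotted lines at the fold of 2 needed for a call; orange is A-485 at the early 2-cell stage, red A-485 at the late 2-cell stage and blue TSA at the late 2-cell stage. All 12 A-485 points lie below the lower dotted line, from -2.35 to -11.7, and of the TSA points that of Tdpoz3 at 2.32 lies outside the dotted lines.

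The response to TSA was higher than the response to A-485 in each member. Both inhibitors had their own DMSO libraries, and in a fit over these 8 libraries the difference of the log2 effects, TSA minus A-485, was called for all 6 members, where 10.8% of the genes tested were called higher. It was greatest for Tdpoz3, at 4.78 ± 0.39 (SE; adjusted p 7.72e-08), and least for Tdpoz2, at 2.68 ± 0.34 (adjusted p 1.38e-05). The median was 3.41 beside 0.01 over all genes. The drugs were given at different doses and times, so this compares the treatments as given.

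**Figure D4:**
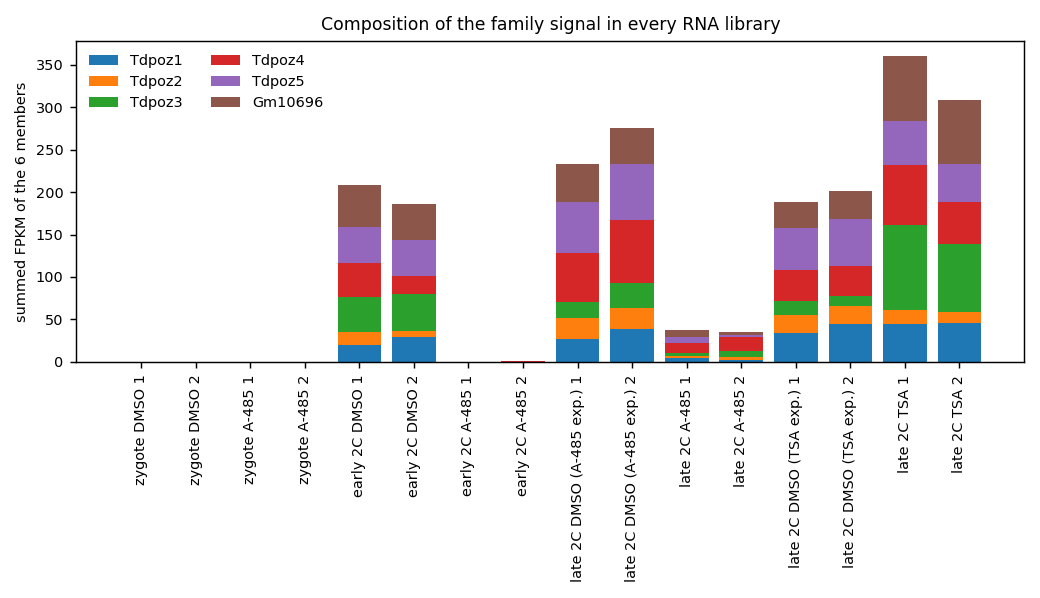
FPKM of the 6 members stacked in each of the 16 RNA libraries, with 1 colour per member and the bar height as their sum. The early 2-cell A-485 libraries sum to under 1 FPKM where their DMSO libraries reach 208 and 185.8, and the green Tdpoz3 segment is widest with TSA, in libraries that sum to 360.2 and 308.4 FPKM.

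The order of groups by mean FPKM differed from member to member, which was not tested. Tdpoz3 was highest with TSA, then in early 2-cell DMSO and late 2-cell DMSO of the A-485 experiment. Late 2-cell DMSO of the TSA experiment, late A-485 and early A-485 followed. No neighbours among these 2-cell groups overlapped, and how many of all genes were without overlap was not counted. The steps between its DMSO groups were not called, and its zygote groups, the lowest, overlapped. Gm10696 was also highest with TSA, while its early and late 2-cell DMSO libraries of the A-485 experiment overlapped. For Tdpoz1 the TSA group and the 3 DMSO groups of 2-cell embryos each overlapped with the next in order. Tdpoz2, Tdpoz4 and Tdpoz5 were highest in late 2-cell DMSO of the A-485 experiment, and for Tdpoz4 that group overlapped with TSA. In every member late A-485 lay below all DMSO and TSA libraries of 2-cell embryos, and the share of all genes with this order was not counted. In the sum at the late 2-cell stage Tdpoz4 took 30.2% and 46.5% with A-485 and 24.7% and 26.7% with DMSO, and Tdpoz5 19.4% and 8.12% with A-485 and 25.8% and 23.9% with DMSO. The A-485 libraries lay far apart in both shares, and the difference from DMSO was not tested.

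The ATAC-seq data held 1 peak list per stage and treatment, made over both replicates, so no difference between lists can be tested. Overlapping peaks were joined into regions. In early 2-cell DMSO embryos 1 of the 6 members, Tdpoz1, had a region within 1 kb of an annotated start. Within 2.5 kb there were 3, with Tdpoz2 at 1.10 kb and Tdpoz5 at 1.53 kb. The region near Tdpoz2 lay over the 3′ end of that gene and beyond it, not upstream of the start. The Tdpoz1 region, chr3:93676116-93676588, had a fold enrichment of 14.4 and covered the whole upstream sequence printed above. Of 22028 protein-coding genes, 31.6% had a region within 1 kb and 36.7% within 2.5 kb. Tdpoz3, Tdpoz4 and Gm10696 were 4.90, 7.23 and 16.1 kb from the nearest region. The copy Gm9125, whose window is 99.6% identical to that of Tdpoz1 over 273 aligned positions, also had a region over its start. How the peak calls treated reads that match several copies was not given in the sources used here.

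With A-485 at the early 2-cell stage, none of the 6 members had a region within 2.5 kb of a start, while 42.4% of protein-coding genes had one. The region over the Tdpoz1 start was not in this list, and the nearest one lay 12.1 kb away from a Tdpoz1 start. For Tdpoz5 and Gm10696 the nearest was at 140 and 132 kb. Among the other copies, Gm4858 had a region over a start in both early 2-cell lists. Its mean level was nevertheless 0.025 FPKM with A-485 against 38.3 FPKM with DMSO. Gm37596, Gm10697 and Gm9125 had none within 2.5 kb with A-485. At the late 1-cell stage 0 of the 6 had a region within 2.5 kb in either list.

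The whole span from Tdpoz2 to Gm10696 was counted after its values had been seen. It held 4 regions in late 1-cell DMSO embryos, 0 in late 1-cell A-485, 29 in early 2-cell DMSO and 4 in early 2-cell A-485. For early 2-cell embryos this is 55.1 regions per Mb with DMSO and 7.60 with A-485, beside 10.2 and 5.03 over the genome. Of the 29 regions, 4 (13.8%) overlapped a region of the A-485 list by at least 1 base, beside 21.7% of 27693 regions genome-wide. All 29 together covered 15766 bases, and the 4 with A-485 covered 1763.

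**Figure D5:**
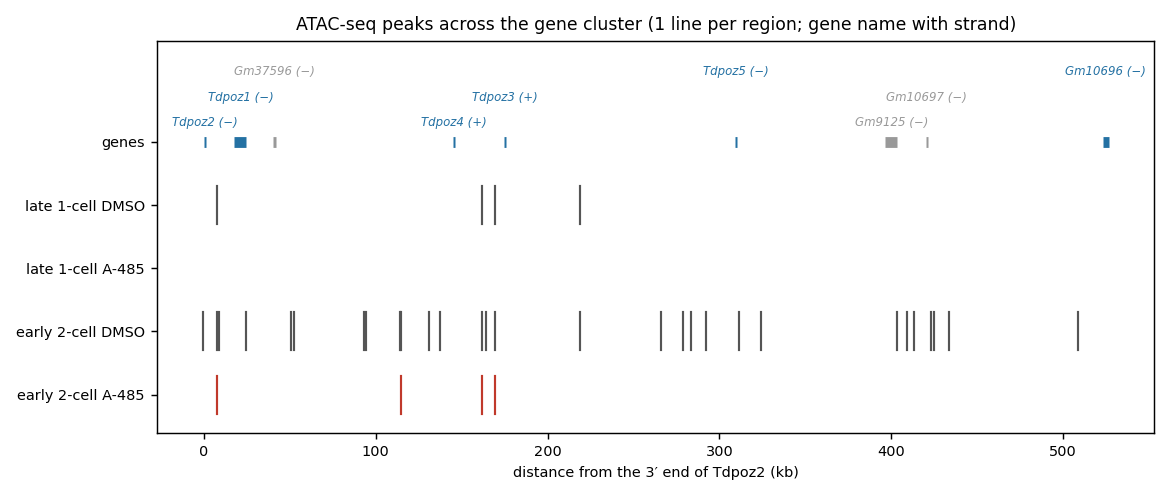
Map of the span with distance in kb from the 3′ end of Tdpoz2, showing the members in blue and other copies in grey with their strand, and 1 line per ATAC-seq region in each of the 4 lists. The 29 regions of early 2-cell DMSO spread over the whole span, the 4 of early 2-cell A-485 lie in its left part, and the late 1-cell A-485 row is empty.

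The partners of SPOP-type adaptors were followed as a list. Of 12 genes of the CUL3 ligase and its activation by the modifier NEDD8, 0 were called in zygotes (edgeR; 0 at an unadjusted p under 0.05). With A-485 1 of the 12 was called lower at the early 2-cell stage, beside 7.9% of all genes tested, and 3 at the late 2-cell stage, beside 16.8%. Cul3, the scaffold, was the early one, at a mean of 32.2 FPKM with A-485 against 72.4 with DMSO (-1.28 ± 0.17, SE, adjusted p 0.000231). At the late stage Cul3 (-3.35 ± 0.14, adjusted p 1.03e-08), Nedd8 (-2.16, adjusted p 6.09e-05) and Cand1, the exchange factor of cullin adaptors (-1.79, adjusted p 5.31e-08), were lower. The same 3 genes were called lower with TSA, beside 13.9% of all genes: Cul3 by -1.89, Nedd8 by -1.63 and Cand1 by -1.45 on the log2 scale. In DMSO embryos Ube2m (-1.52) and Cops5 (-1.47) fell from the zygote to the early 2-cell stage, beside 14.9% of all genes. From the early to the late 2-cell stage Cul3 rose (2.35) and Nae1 (-1.58) and Uba3 (-1.03) fell, beside 15.9% of all genes called higher and 8.92% lower. With A-485 over the same interval 5 of the 12 were called lower, beside 7.15% of all genes, and 0 higher: Nae1 (-2.50), Nedd8 (-1.40), Uba3 (-1.28), Cand1 (-1.15) and Rbx1 (-2.18), the RING subunit. The difference of the A-485 effects, late minus early, was called negative for Cul3 (-1.99), Nedd8 (-1.61), Cand1 (-1.59) and Rbx1 (-1.07), opposite in sign to the 6 members and beside 7.38% of all genes, and positive for Cops5 (1.35). For TSA minus A-485 it was called for Cul3 alone (1.57). The adaptors Spop and Spopl were called in none of the comparisons.

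The 5 protein-coding genes whose pattern was most like the summed family were found over 9624 genes and 16 libraries. Gm4778 had a Pearson r of 0.991, Gm5773 one of 0.989, Bex6 and Ajuba 0.988 each and B020031M17Rik 0.985, all on log2(FPKM + 0.1). The points share libraries and the same few stages, so these values only describe likeness. Members and the other copies were left out of the ranking by symbol alone. Whether Gm4778 or Gm5773 is itself a further copy of the family was not looked into. Gm4778 and Gm5773 lie on chromosome 3 near the family, Gm5773 at chr3:93773000-93774142 inside the span and Gm4778 at chr3:94264036-94266784 beyond Gm10696. Gm4778 went from 20.9 and 28.5 FPKM in early 2-cell DMSO to 0.05 in both A-485 libraries, and had 56.0 and 48.1 FPKM with TSA against 13.3 and 15.3 FPKM. B020031M17Rik, on chromosome 13, had 177.5 and 156.5 FPKM in early 2-cell DMSO, 0.18 and 1.49 FPKM with A-485, and 334.9 and 369.9 FPKM with TSA against 81.7 and 116.1 FPKM. Bex6 had 102.0 and 105.7 FPKM with TSA against 72.0 and 46.5 FPKM. Not all 5 were higher with TSA: Gm5773 had 20.3 and 18.3 FPKM against 20.8 and 19.3 FPKM, and Ajuba, a LIM-domain protein, 13.3 and 13.5 FPKM against 11.8 and 11.6 FPKM.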

How the data were processed

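Total RNA-seq libraries were made with the SMART-Seq Stranded Kit. Per the sources, the authors trimmed reads with Trimmomatic 0.39, aligned them to GRCm38 with STAR 2.7.8a and deposited RSEM 1.3.1 expected counts and FPKM for each gene, with posterior standard deviations of the counts and effective lengths. ATAC-seq peak lists were deposited by the authors from the ENCODE pipeline, with fold enrichment (a ratio) and −log10 p-values, 1 list over both replicates of each group. Expected counts were rounded, scaled by TMM and tested with edgeR 4.0.16 in R 4.3.3 on genes with at least 10 summed counts, with DESeq2 1.42.0 as an alternative. The standard error is the log2 fold change over the square root of F. Depth was 13206163 to 32585987 expected counts per library. On simulated early 2-cell data of 20360 genes, 191 of 200 changed genes were recovered with 6 false calls. The simulation gave all genes the same spread, raised as many genes as it lowered and used no FPKM cutoff. Genes with few counts were not changed in it, so it does not cover members near 0. Every member was named in each comparison, with the ligase genes that were called and the 5 genes of highest r among those with a mean of at least 5 FPKM in a group. The members and lists were chosen with earlier results of these data known. A comparison of protein sequences was replaced by coding sequence built from GENCODE M21 and the genome, since no protein table was used here. Tdpoz-ps1 and Tdpoz-ps2 were not analysed here. Promoter windows, 250 bases before to 50 after a start, came from RefSeq on GRCm38.p6 for all members but Tdpoz2 and Tdpoz3.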

Additional observations from a re-analysis of the deposited data

Results flagged for a closer look

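Both tests of a difference between effects gave a call for each member, which marked 12 results for a closer look. The effect of A-485 on the log2 scale was higher, that is less negative, at the late than at the early 2-cell stage by 7.55 for Tdpoz1, 3.87 for Tdpoz2, 5.28 for Tdpoz3, 5.55 for Tdpoz4, 5.67 for Tdpoz5 and 8.60 for Gm10696. The adjusted p-values (edgeR interaction term) ran from 2.38e-10 to 0.000385. At the late 2-cell stage the effect of TSA was higher than that of A-485 by 3.31 for Tdpoz1, 2.68 for Tdpoz2, 4.78 for Tdpoz3, 2.96 for Tdpoz4, 3.51 for Tdpoz5 and 4.21 for Gm10696, with adjusted p-values from 3.79e-08 to 1.38e-05. The stages and the inhibitors were collected separately.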

How the results depend on the processing

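Of the counts of members called in each comparison under the alternatives, 132 stayed within 1.5 times the reported count and 5 did not. With TSA 2 members were called higher, not 1, under scaling to total counts, in a fit of all 16 libraries and with counts moved by 1 posterior standard deviation. Late against early 2-cell DMSO gave 0 to 2 when libraries were left out in turn, with 0 without early 2-cell DMSO replicate 2. The DMSO sets differed in 1 member with counts so moved. For Tdpoz5 that move turned the sign with TSA (1.14), late against early DMSO (-1.03) and between DMSO sets (1.43). It sets each library against the observed difference by construction. The summed counts of Tdpoz5 and Gm10697, an alternative added after the data were seen, gave the same calls as Tdpoz5 alone. Summed over all 10 copies, FPKM was 0.545 and 0.36 in zygotes (DMSO, A-485), 336.5 and 1.06 in early 2-cell embryos, 468.6 and 61.8 in late 2-cell embryos, and 362.9 and 553.8 in the TSA experiment (DMSO, TSA). Within 2.5 kb, 3 members had open chromatin in early 2-cell DMSO, that of Tdpoz2 over its 3′ end. The replicate block moved no member count: for A-485 6 were called at either 2-cell stage. Same-numbered libraries shared only a number, with deviations correlated from -0.0456 to 0.119.

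Over all genes, calls in zygotes ran from 12 to 56 against 13, calls between DMSO sets from 214 to 512 against 273, and calls from zygote to early 2-cell rose from 5259 to 9221 with mitochondrial scaling. The share of calls that were higher moved with scaling from 49.9% to 63.3% (TSA, total counts), and with mitochondrial counts from 38.6% to 21.4% (late A-485), 42.9% to 13.9% (early against zygote), 64.1% to 32.5% (late against early A-485), 50.7% to 24.1% (late minus early A-485 effect) and 80.0% to 92.0% (TSA minus A-485 effect). With 2 libraries a group and near 0 counts in zygotes and early A-485 embryos, fold sizes there are limited by depth.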
